A study of Arabidopsis thaliana with 15 samples.

Results

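Arabidopsis thaliana plants in which ribosomal protein eS6 came from the transgene eS6A-HA were compared with the mutant rps6a, in which the gene RPS6A is mutant and its paralog RPS6B is not. The eS6A-HA plants were mutant in both RPS6A and RPS6B and carried the transgene, so the compared genotypes differ at both loci and in the transgene. All 3 eS6A-HA libraries and all 3 rps6a libraries were used, 6 of the 15 libraries of the series, and 16335 of the 21777 genes in the table were tested because their mean over the 15 libraries was at least 10. The other 5442 genes were below that filter. The remaining libraries came from plants mutant in both genes with the transgene eS6A-Δ6SA, from the mutant rps6b and from the wild type (WT), with 3 libraries each, and WT values are given beside the comparison. Every group consisted of shoots of 12-day-old seedlings grown on MS medium under 16 h light and 8 h dark. Total RNA was depleted of ribosomal RNA and carried ERCC spike-ins, which are synthetic control RNAs. The promoter of the transgene, the number of independent lines and the number of plants behind a library are not given in the sources used here. Nothing in them says that the libraries of a group came from separate plantings, so p-values measure the spread between these samples, which may be technical.

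The protein eS6 sits in the small (40S) subunit of the cytosolic ribosome, and its C-terminal tail is phosphorylated by S6 kinases, which act downstream of the nutrient-sensing kinase TOR. Arabidopsis codes for eS6 in a pair of genes, and loss of either is known to slow growth and to give narrow, pointed leaves. Plant ribosomal protein genes are known for shared promoter elements and for being expressed most in dividing tissue, and starved plant cells are known to lower their transcripts and to raise those of catabolic genes.

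Recovered gene reads per library ranged from 7477503 to 9167608 in eS6A-HA and from 5726410 in rps6a replicate 1 to 8319828 in rps6a. Spike-ins took 5.01% ± 0.183 of the reads in eS6A-HA and 4.83% ± 0.283 in rps6a (SD, n = 3 each, exact two-sided permutation p = 0.4).

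The targeted genes were examined first. RPS6A (AT4G31700) had 1765, 1879 and 1836 normalized counts in the eS6A-HA libraries, against 60.5, 85.5 and 63.5 in the rps6a libraries. Levels of RPS6A in the other genotypes were 1112, 1385 and 1220.3 in eS6A-Δ6SA, 1579, 1800.4 and 1792 in rps6b and 1062, 969 and 824 in WT. The rps6a libraries lay far below all others, and those of eS6A-HA lay above those of WT without overlap. The log2 fold change over rps6a was 4.71 with an SE of 0.11 (limma adjusted p 7.67e-22), and that over WT was 0.95 (limma adjusted p 5.06e-06). Against rps6b its log2 fold change was 0.085 (limma adjusted p 0.635). Because transgene reads with the sequence of the gene fall to RPS6A, its level in eS6A-HA does not separate transgene from residual locus transcripts.

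RPS6B (AT5G10360) went the other way. It had 72.0, 95.9 and 92.1 normalized counts in eS6A-HA, against 1190.1, 1249.7 and 1225 in rps6a. In the other genotypes the counts were 67.5, 58.4 and 67.0 in eS6A-Δ6SA, 253, 270.5 and 276 in rps6b and 978, 918 and 899 in WT. The rps6a libraries were the highest of the 15, and the libraries of both transgene lines were the lowest. RPS6B had a log2 fold change of -3.81 with an SE of 0.10 in eS6A-HA over rps6a (limma adjusted p 8.00e-26), and it was higher in rps6a than in WT by 0.39 (limma adjusted p 0.00405). The sum of both genes was 1837 to 1975 normalized counts in eS6A-HA, against 1251 to 1335 in rps6a and 1723 to 2041 in WT. The eS6A-HA sums lay above those of rps6a and within the range of WT.

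**Figure D1:**
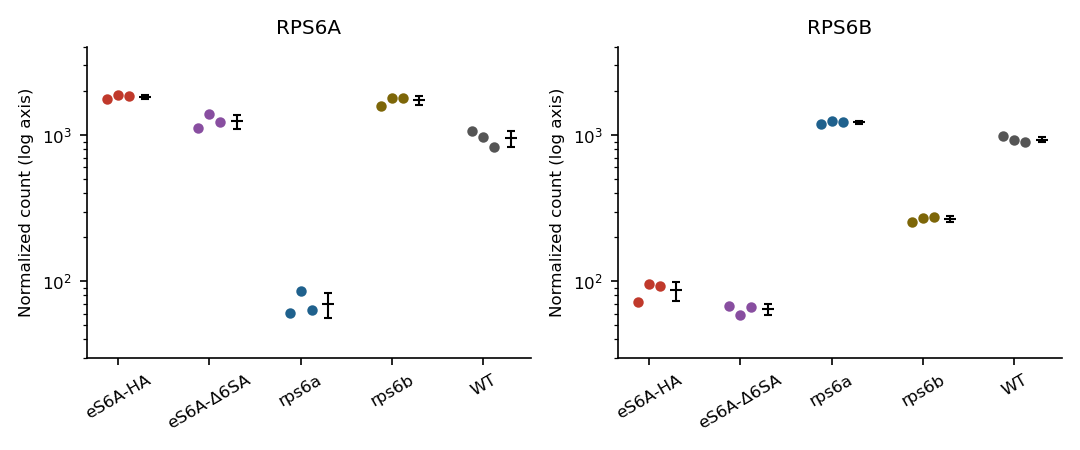
Normalized counts of RPS6A and RPS6B on a log axis in each of the 15 libraries, with groups ordered eS6A-HA, eS6A-Δ6SA, rps6a, rps6b and WT; dots are libraries and bars are the mean ± SD of 3 libraries. RPS6A averages 1827 in eS6A-HA and 69.8 in rps6a, whereas RPS6B averages 86.7 in eS6A-HA and 1222 in rps6a.

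Sequence before both eS6 genes is shown because their promoters share an element with the other ribosomal protein genes described further on, the site II motif, known in Arabidopsis as a binding site of TCP factors. Windows are from the RefSeq reference TAIR10.1, the NCBI release of TAIR10, printed 5′ to 3′ on the strand of the gene, with matches to TGGGCC on either strand in capitals. The RPS6A window is chr4:15347805-15347904, minus strand, with its match starting 14 bases before the annotated gene start. The RPS6B window is chr5:3260255-3260354, minus strand, with matches at 58, 56 and 41 bases, the first pair of which overlap as a palindrome.
RPS6A: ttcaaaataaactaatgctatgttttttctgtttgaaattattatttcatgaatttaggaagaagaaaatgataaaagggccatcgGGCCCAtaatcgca
RPS6B: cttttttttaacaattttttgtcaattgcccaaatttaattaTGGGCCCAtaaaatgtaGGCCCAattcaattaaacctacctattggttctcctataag

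Across all genes, 3852 of the 16335 tested differed between eS6A-HA and rps6a, of which 2071 (12.7% of those tested) were higher and 1781 (10.9%) lower in eS6A-HA (limma, adjusted p under 0.05 after Benjamini-Hochberg adjustment). The words rose, fell, higher and lower below refer to that test for single genes. The median log2 fold change was 0.51 among the genes that rose and -0.68 among those that fell, against -0.0022 over all genes tested. A fold change of 2 or more (log2 of at least 1 in size) was reached by 186 rises (1.14%) and 442 falls (2.71%), so falls made up most of the large changes. In 6268 genes (38.4%) the 3 eS6A-HA and the 3 rps6a libraries did not overlap.

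The split between rises and falls depended on the scale. Rises made up 53.8% of the calls with the deposited size factors, 43.2% with upper-quartile scaling, 33.0% when libraries were scaled to the total of nuclear genes and 3.03% when they were scaled to the spike-ins. Spike-in scaling moved the median of all genes by -0.45, nuclear total scaling by -0.10 and upper-quartile scaling by -0.05. With spike-in scaling 8105 of the 16335 genes fell, so counts of falls given below for that scale are to be read beside this number. Changes below are given on the deposited scale, and a group whose direction turns under another scaling is named as such.

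The tissue was checked with markers. Of 8 shoot markers 7 were tested, and 4 were higher in eS6A-HA (RCA, GLK2, LHCB1.3 and LHCA1), against 12.7% of all genes. With spike-in scaling 2 of the shoot markers were lower and 0 higher. Of 19 root markers 9 were in the table, and their sum was 1532 to 1657 in eS6A-HA, against 3609 to 4858 in rps6a and 1310.2 to 2029 in WT. That sum was nearly all PYK10, a beta-glucosidase of endoplasmic reticulum bodies, which had 1654, 1527 and 1574 normalized counts in eS6A-HA, against 3906, 3579 and 4828 in rps6a (log2 fold change -1.36, SE 0.13, limma adjusted p 1.34e-06). The root hair, endodermis and root stem cell markers COBL9, EXPA18, PRP3, LRX1, CASP1, CASP2, IRT1 and WOX5 were at or near 0, at most 2.43 in any eS6A-HA library and 6.64 in any rps6a library. The 4 flower markers in the table summed to 8.50 to 9.26 in eS6A-HA, against 12.1 to 16.7 in rps6a. PYK10 moved with every group of genes described as lower in eS6A-HA, and its part in those results was not tested.

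Other comparisons put these counts in context, although they share libraries with this one and are not independent of it. Between rps6a and WT 3468 genes (21.2%) differed, with 1702 (10.4%) higher and 1766 (10.8%) lower in rps6a. Between eS6A-HA and WT 130 genes (0.796%) differed, with 90 (0.551%) higher and 40 (0.245%) lower in eS6A-HA.

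**Figure D2:**
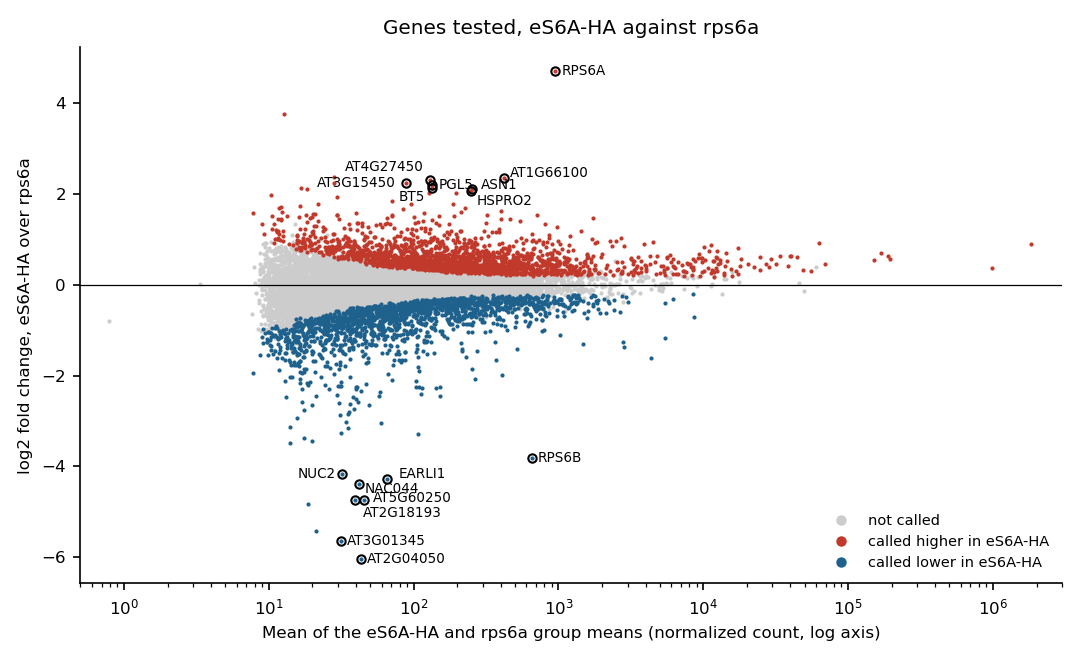
Log2 fold change of eS6A-HA over rps6a (y axis) against the mean normalized count of the groups on a log axis (x axis) for the 16335 genes tested, with genes that rose, fell or did not pass coloured separately and the largest named changes circled. A fold change of at least 2 is reached by 442 of the 1781 falls and 186 of the 2071 rises, and RPS6A stands at 4.71.

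Apart from RPS6B, the 8 largest falls were genes with few counts in eS6A-HA. They were chosen among genes averaging 50 or more in rps6a and without overlap between the groups. NAC044, a NAC transcription factor known to act with SOG1 in the DNA damage response, had 2.06, 2.43 and 4.49 normalized counts in eS6A-HA, against 91.9, 65.6 and 84.4 in rps6a and 3.56, 0.908 and 0 in WT (log2 fold change -4.39, SE 0.40, limma adjusted p 4.19e-10). AT2G04050, annotated as a MATE-family efflux transporter, had 0, 1.21 and 0 in eS6A-HA, against 109, 84.7 and 66.0 in rps6a. With at most 3 reads in each eS6A-HA library, AT2G04050 was at least 25.7-fold lower there, set against 3 reads per library. The groups were far apart for both genes, and counts in eS6A-HA and WT were few. The counts were not particular to rps6a, since rps6b averaged 41.3 for NAC044 and 19.9 for AT2G04050. The means in eS6A-Δ6SA were 19.3 and 5.22.

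AT3G01345, an uncharacterized protein gene, was at least 18.7-fold lower by the same floor, with 1.03, 0 and 0 counts in eS6A-HA, against 67.7, 57.3 and 63.5 in rps6a. Its mean was 62.6 in rps6b and 26.2 in eS6A-Δ6SA. NUC2, a nucleolin known to bind ribosomal DNA, was at least 18.3-fold lower, with 3.09, 3.64 and 1.12 in eS6A-HA, against 62.9, 70.6 and 51.0 in rps6a and a mean of 4.54 in WT. AT2G18193, annotated as a nucleoside triphosphatase, had 4.11, 3.64 and 0 in eS6A-HA, against 68.9, 75.6 and 81.9 in rps6a (log2 fold change -4.73). None of these genes overlapped between the groups, which was a condition of their choice. AT5G60250, a RING-finger protein gene, fell with a log2 fold change of -4.74, and EARLI1, a lipid transfer protein known for its response to cold, with one of -4.27 (limma adjusted p 1.26e-13 and 3.10e-04). EARLI1 was the more variable, with 9.26, 1.21 and 10.1 counts in eS6A-HA, against 90.7, 122 and 159 in rps6a. Both overlap an annotated gene on the opposite strand, and whether strand was used in counting is not stated, so their reads may be shared.

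The palindrome CTTNNNNNNNAAG, which SOG1 is known to bind in Arabidopsis, was searched in the 250 bases before each gene start, for which 16178 tested genes had a window. It occurred in 4 of the 8 largest falls (50%), in 2 of the 8 largest rises (25%), in 8.39% of all windows and in 7.51% of the windows of genes that fell. A match is a description of letters and not a measured site. The 4 windows are shown with that of PARP2, a poly(ADP-ribose) polymerase gene chosen after its values were seen, which had 22.1 ± 3.15 counts in eS6A-HA, against 67.2 ± 7.73 in rps6a (SD, n = 3 each, log2 fold change -1.56). In capitals are the fixed and free letters of each match. The windows are chr3:228975-229074, plus strand for NAC044, chr2:7919346-7919445, minus strand for AT2G18193, chr2:1339599-1339698, minus strand for AT2G04050, chr3:6408067-6408166, minus strand for NUC2 and chr4:1049636-1049735, plus strand for PARP2 (TAIR10.1). Matches began 65 bases before the gene start in NAC044, 73 in AT2G18193, 215 and 156 in AT2G04050, 190 in NUC2 and 96 in PARP2.
NAC044: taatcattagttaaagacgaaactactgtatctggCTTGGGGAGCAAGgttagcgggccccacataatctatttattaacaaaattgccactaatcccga
AT2G18193: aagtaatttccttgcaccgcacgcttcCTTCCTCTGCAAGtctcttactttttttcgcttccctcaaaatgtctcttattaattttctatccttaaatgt
AT2G04050: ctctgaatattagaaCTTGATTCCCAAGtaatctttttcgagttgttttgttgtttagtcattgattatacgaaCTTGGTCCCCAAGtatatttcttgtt
NUC2: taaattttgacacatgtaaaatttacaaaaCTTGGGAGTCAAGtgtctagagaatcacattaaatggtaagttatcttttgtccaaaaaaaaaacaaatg
PARP2: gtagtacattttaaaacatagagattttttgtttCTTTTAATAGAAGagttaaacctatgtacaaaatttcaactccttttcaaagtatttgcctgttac

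The largest rises after RPS6A were genes also expressed in WT. PGL5, a cytosolic enzyme of the oxidative pentose phosphate pathway, had 225, 228 and 213 normalized counts in eS6A-HA, against 53.2, 44.0 and 45.1 in rps6a and 164, 168 and 180.2 in WT (log2 fold change 2.21, SE 0.12, limma adjusted p 7.59e-16). ASN1, an asparagine synthetase gene known to be induced by darkness and sugar shortage, had 436, 419.9 and 377 in eS6A-HA, against 98.0, 94.7 and 90.3 in rps6a (log2 fold change 2.11, SE 0.21, limma adjusted p 4.20e-06). HSPRO2, a homolog of a sugar beet nematode resistance gene, had 389, 427 and 383 in eS6A-HA, against 77.4, 115 and 94.4 in rps6a (log2 fold change 2.07). Their choice required that the groups did not overlap. WT means were 171, 315 and 371 for PGL5, ASN1 and HSPRO2.

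AT1G66100, a thionin gene of the antimicrobial PR-13 family, rose most, with 720.0, 716 and 668 counts in eS6A-HA, against 115, 154 and 140.4 in rps6a (log2 fold change 2.36, limma adjusted p 8.73e-20), and was also higher than WT by 0.46 (limma adjusted p 0.00908). AT4G27450 and AT3G15450, both annotated as aluminium-induced proteins with YGL and LRDR motifs, rose by 2.31 and 2.26, and BT5, a BTB and TAZ domain protein gene, by 2.13 (log2). AT4G27450 had 238, 225 and 187 in eS6A-HA, against 44.7, 40.7 and 42.6 in rps6a. All of these except PGL5 and HSPRO2 overlap an annotated gene, so part of their reads may belong to the neighbour.

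**Figure D3:**
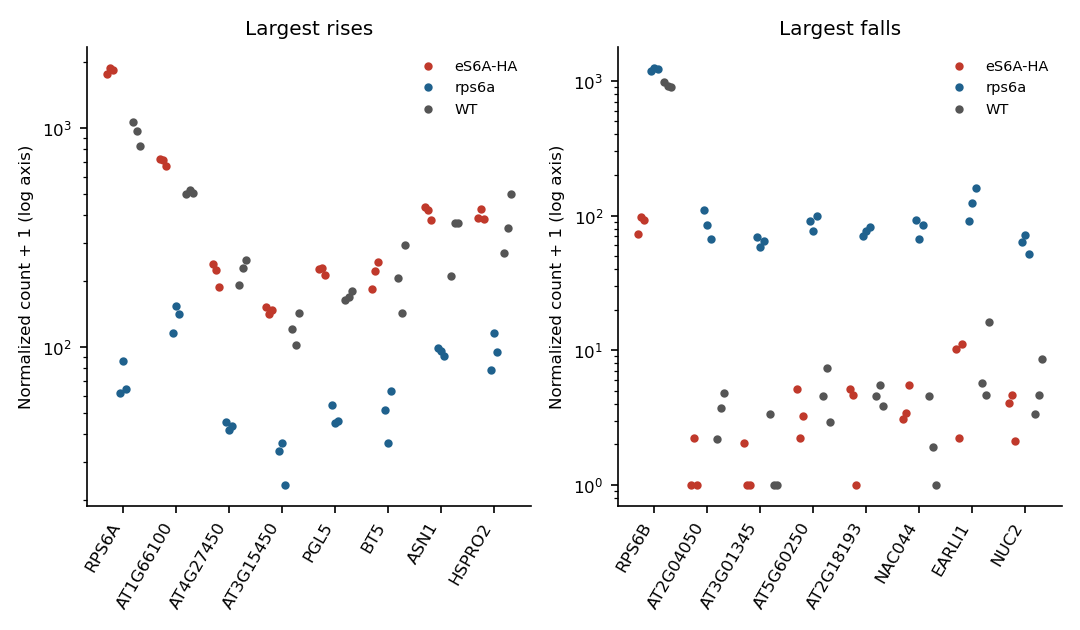
Normalized count + 1 on a log axis for the 8 largest rises and the 8 largest falls in the 3 eS6A-HA, 3 rps6a and 3 WT libraries, each dot a library. In the genes that rose, eS6A-HA lies above rps6a, as for PGL5 with means of 222 in eS6A-HA, 47.4 in rps6a and 171 in WT.

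Transcripts of the cytosolic ribosome were lower in eS6A-HA than in rps6a across both subunits. Of 88 genes for 40S proteins other than eS6, 82 were tested and 63 fell, and all 82 estimates were below 0. Of 126 genes for 60S proteins, 118 were tested, 84 fell and 1 rose. The median log2 fold change was -0.43 for the 40S genes and -0.45 for the 60S genes, against -0.0022 over all genes, and in 165 of the 200 genes tested the eS6A-HA and rps6a libraries did not overlap, against 38.4% of all genes. The 147 of 200 that fell compare with 10.9% of all genes. The estimates spread from -1.69 for RPP0A to 0.56 for RPL3B. Scalings to spike-ins, nuclear total or upper quartile lowered the median of all genes, so they could not turn these medians above 0. Less the median of all genes, the 40S median was -0.43 on the deposited scale. It was -0.44, -0.43 and -0.43 with those scalings, and that of the 60S genes was -0.45, -0.44 and -0.44. Leaving out any of the 6 libraries gave 116 to 142 falls.

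Within the 40S list the largest falls were in RPSaB and RPS28C. RPSaB, a gene for the laminin receptor-like protein uS2, had 23.7, 14.6 and 15.7 normalized counts in eS6A-HA, against 46.0, 40.7 and 37.6 in rps6a (log2 fold change -1.19, limma adjusted p 1.77e-04). RPS28C had 146, 148 and 157 in eS6A-HA, against 250.4, 264 and 265 in rps6a (log2 fold change -0.78, limma adjusted p 1.78e-06). Neither gene overlapped between the groups.

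Within the 60S list RPP0A, a gene for the acidic stalk protein P0, had 12.3, 19.4 and 11.2 counts in eS6A-HA, against 50.8, 49.8 and 41.8 in rps6a (log2 fold change -1.69, SE 0.29, limma adjusted p 2.97e-05). RPL24A, the next largest fall of this list, had 283, 274 and 288 in eS6A-HA, against 535, 536 and 481 in rps6a (log2 fold change -0.87). The copies of a protein did not all go 1 way. RPL3B, which encodes uL3 near the peptidyl transferase centre, was the single ribosomal protein gene that rose, with 93.6, 108 and 110.1 in eS6A-HA, against 65.3, 88.0 and 60.2 in rps6a (log2 fold change 0.56, SE 0.14, limma adjusted p 0.00429). That rise did not pass with spike-in scaling. Many ribosomal protein genes have near-identical copies or overlap a neighbour, so the split of reads between copies is uncertain.

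The WT values stand beside these as follows. In rps6a against WT, 46 of the 82 40S genes and 68 of the 118 60S genes were higher in rps6a, with medians of 0.37 and 0.36. In eS6A-HA against WT, 0 of the 200 genes passed limma in either direction (0 higher and 16 lower at an unadjusted p under 0.05), with medians of -0.09 and -0.085. These comparisons share the rps6a and eS6A-HA libraries with the one above.

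Site II motifs were searched as TGGGCC and TGGGCT on both strands. At least 1 of them occurred in the windows of 67.1% of the 82 40S genes and 69.5% of the 118 60S genes, against 24.2% of all tested genes with a window. Among ribosomal protein genes the share was 68.0% (100 of 147) in those that fell and 69.8% (37 of 53) in those that did not. The telo-box AAACCCTA, often found beside site II in such promoters, occurred in 12.2% of the 40S and 21.2% of the 60S windows, against 3.81% of all. It also occurred in 20% (3 of 15) of the windows of the sugar starvation list described below, and in 0 of the 19 mitosis windows. The windows of RPP0A, the largest fall, and RPL3B, the single rise, are shown because both hold site II letters although the genes moved in opposite directions. They are chr2:16710773-16710872, minus strand for RPP0A, with TGGGCT at 73 and 42 bases before the gene start, and chr1:22723213-22723312, minus strand for RPL3B, with TGGGCC at 117 and TGGGCT at 84 bases. Matches are in capitals.
RPP0A: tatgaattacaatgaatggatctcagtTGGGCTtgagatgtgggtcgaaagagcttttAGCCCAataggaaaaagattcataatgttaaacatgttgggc
RPL3B: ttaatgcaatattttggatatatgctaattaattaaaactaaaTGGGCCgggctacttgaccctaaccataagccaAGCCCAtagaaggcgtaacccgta

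Of 37 ribosome assembly factors, all tested, 13 fell and 1 rose, against 10.9% and 12.7% of all genes, with a median of -0.28. NUC2 fell most, and FIB2, a fibrillarin that methylates ribosomal RNA, had 35.0, 41.3 and 48.3 counts in eS6A-HA, against 75.0, 74.7 and 74.4 in rps6a (log2 fold change -0.84). The single rise was MDN1, the midasin ATPase that remodels pre-60S particles, with 419, 427 and 447 in eS6A-HA, against 339.9, 339 and 349 in rps6a (log2 fold change 0.33, limma adjusted p 0.0182). The MDN1 rise turned to -0.13 with spike-in scaling and was lost with nuclear total scaling and when rps6a replicate 1, rps6a replicate 2 or eS6A-HA replicate 3 was left out. With spike-in scaling 32 of the 37 fell, where 8105 of all 16335 genes did.

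Of 9 genes of the TOR and S6 kinase pathway, 5 rose by small amounts and 1 fell, against 12.7% and 10.9% of all genes. TOR itself had 554, 516 and 567 normalized counts in eS6A-HA, against 440.2, 452 and 439.6 in rps6a (log2 fold change 0.30, limma adjusted p 0.0108). Its partners RAPTOR1 and RAPTOR2 rose by 0.42 and 0.44, and the kinase genes YAK1 and S6K1 by 0.25 and 0.22, whereas S6K2 fell to 41.1, 24.3 and 41.6 in eS6A-HA, against 49.6, 57.3 and 59.3 in rps6a (log2 fold change -0.66). S6K1 and S6K2 code for the kinases of eS6. PDK1, TAP46 and LST8-1 did not pass, at -0.19, -0.025 and 0.021. Its median of 0.22 became -0.23 with spike-in scaling (0 rises, 4 falls), and rises numbered 2 with upper-quartile scaling and with DESeq2 and 1 with nuclear total scaling. Leaving out eS6A-HA replicate 3 gave 1 rise, leaving out eS6A-HA replicate 2 or rps6a replicate 3 gave 2, leaving out rps6a replicate 1 or 2 gave 3, and the S6K2 fall was lost without rps6a replicate 2, rps6a replicate 3 or eS6A-HA replicate 2.

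**Figure D4:**
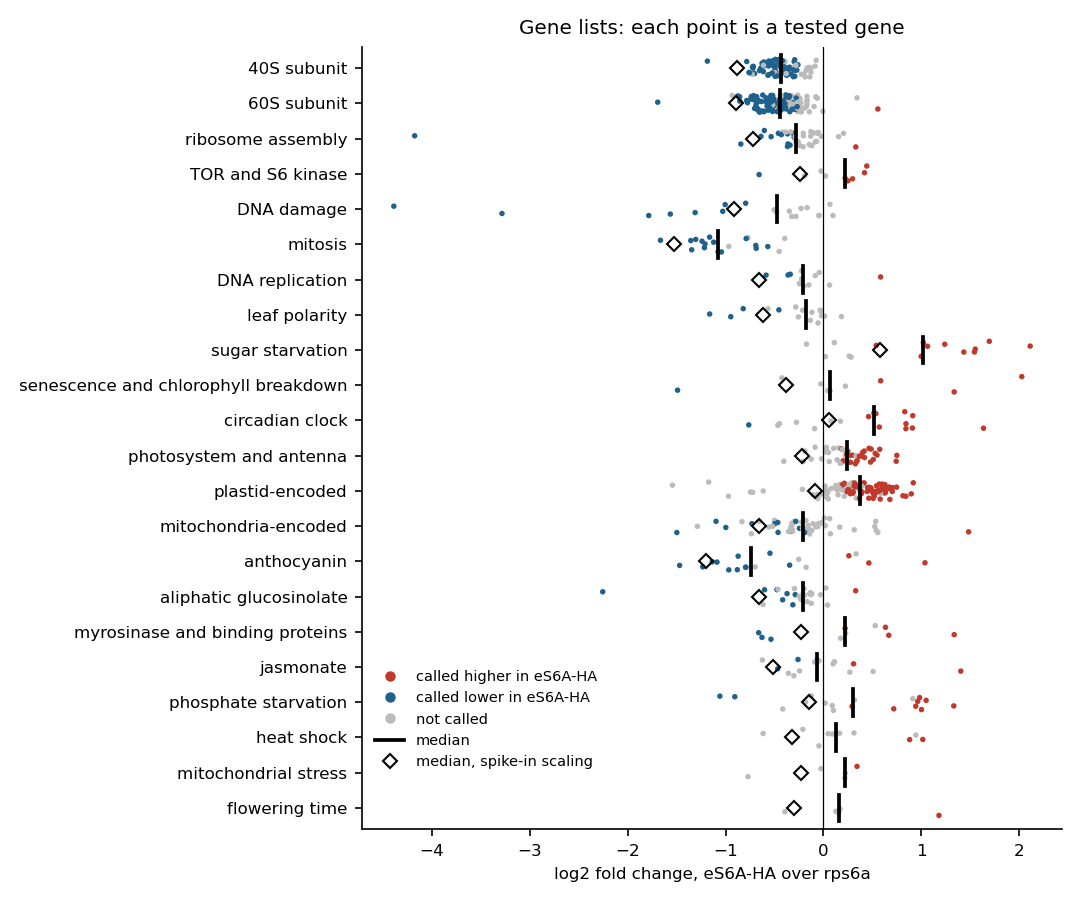
Log2 fold change of eS6A-HA over rps6a for each tested member of 22 gene lists; points are genes coloured by whether they rose, fell or did not pass, black bars are list medians and diamonds are the medians with spike-in scaling. Medians on the deposited scale run from -1.08 for mitosis to 1.02 for sugar starvation, and those between 0 and 0.45, such as photosystem and antenna at 0.24, mostly lie below 0 with spike-in scaling.

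Genes of cell division were lower in eS6A-HA than in rps6a. All 19 genes of a list of mitotic cyclins, B-type cyclin-dependent kinases and spindle or cytokinesis proteins were tested, 15 fell, with a median of -1.08. All 19 estimates were below 0, and in 17 genes the libraries of the groups did not overlap. Over all genes 10.9% fell and 38.4% did not overlap. CDC20.1, an activator of the anaphase-promoting complex, had 35.0, 43.7 and 39.3 normalized counts in eS6A-HA, against 149, 122 and 111 in rps6a and 62.8, 57.2 and 54.4 in WT (log2 fold change -1.66, SE 0.15, limma adjusted p 3.17e-10). CDKB2;1, a plant-specific mitotic kinase, had 40.1, 47.3 and 40.4 in eS6A-HA, against 114, 109.6 and 108 in rps6a and 46.2, 45.4 and 47.7 in WT (log2 fold change -1.36). For both genes the rps6a libraries lay above those of eS6A-HA and WT. For CDC20.1 they overlapped those of rps6b and eS6A-Δ6SA, which reached 118 and 119. In bulk tissue, fewer cells of a type and less RNA per cell cannot be told apart. In rps6a against WT 15 of the 19 were higher in rps6a (median 0.91), and in eS6A-HA against WT 0 passed limma (1 was lower at an unadjusted p under 0.05, median -0.12). With a filter at a mean of 50 the count of falls was 7, since fewer members were tested.

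Of 12 genes for DNA replication, all tested, 3 fell (MCM6, MCM2 and RNR1) and RNR2A rose, against 10.9% and 12.7% of all genes, with a median of -0.21. MCM6, a subunit of the replicative helicase, had 62.7, 53.4 and 87.6 counts in eS6A-HA, against 105, 90.5 and 106 in rps6a (log2 fold change -0.59), and RNR2A, a ribonucleotide reductase subunit, had 87.4, 135 and 103 in eS6A-HA, against 66.5, 75.6 and 71.0 in rps6a (log2 fold change 0.58). The other 8 genes lay between -0.25 and 0.062 and did not pass. Calls numbered 0 without eS6A-HA replicate 2, and falls numbered 1 without eS6A-HA replicate 3 or without rps6a replicate 2. With spike-in scaling 10 fell, where 8105 of all 16335 genes did.

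Of 24 DNA damage genes 19 were tested, 8 fell and 0 rose with limma (also 0 at an unadjusted p under 0.05, with edgeR and with DESeq2), against 10.9% and 12.7% of all genes, with a median of -0.48. Besides NAC044, GMI1, a structural-maintenance-of-chromosomes protein gene of recombination, had 16.5, 19.4 and 21.3 normalized counts in eS6A-HA, against 198, 195 and 187 in rps6a and 23.7, 26.3 and 21.0 in WT (log2 fold change -3.28, SE 0.16, limma adjusted p 1.23e-17). The eS6A-HA libraries lay near those of WT and far below rps6a. The other falls were CYCB1;1, PARP2, RPA1E, RAD54, XRI1 and BRCA1, from -1.78 to -0.80. The regulator SOG1 and the kinases ATM and ATR did not pass, at -0.045, -0.047 and 0.10. Leaving out any of the 6 libraries gave 8 falls each time, and a filter at a mean of 50 gave 2 since fewer members were tested. Spike-in scaling gave 16, where 8105 of all 16335 genes fell. The palindrome CTTNNNNNNNAAG occurred in 26.3% (5 of 19) of this list's windows, against 8.39% of all. That share was not particular to this list, since it was 23.5% (4 of 17) for the circadian clock genes described below. It was 40% (2 of 5) for the mitochondrial stress genes and 4% (1 of 25) for the aliphatic glucosinolate genes.

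Of 17 genes of leaf polarity and meristem identity 16 were tested, 4 fell and 0 rose with limma (also 0 at an unadjusted p under 0.05, with edgeR and with DESeq2), against 10.9% and 12.7% of all genes, with a median of -0.17. The largest falls were in KNOX homeobox genes, KNAT6 (log2 fold change -1.16, limma adjusted p 2.97e-04) and STM. STM, which keeps shoot meristem cells undifferentiated, had 12.3, 19.4 and 18.0 normalized counts in eS6A-HA, against 39.9, 24.1 and 35.1 in rps6a (log2 fold change -0.95, limma adjusted p 0.00469). BP and REV also fell, with log2 fold changes of -0.82 and -0.46. Genes that set the upper or lower leaf side, PHB, PHV, KAN1, KAN2, FIL, YAB3 and ETT, did not pass and lay between -0.21 and 0.18. The median was -0.11 without eS6A-HA replicate 1. Spike-in scaling gave 15 falls, where 8105 of all 16335 genes fell, and a filter at a mean of 50 gave 2.

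Genes that plants induce when sugar is short were higher in eS6A-HA than in rps6a. Of 17, 15 were tested, 10 rose and 0 fell with limma (also 0 at an unadjusted p under 0.05, with edgeR and with DESeq2), with a median of 1.02, and in 11 the eS6A-HA libraries all lay above those of rps6a. Among all genes 12.7% rose, 10.9% fell and 38.4% did not overlap in either direction. TPS11, a trehalose phosphate synthase-like gene repressed by sugar, had 349, 376 and 315 normalized counts in eS6A-HA, against 121, 89.7 and 110.3 in rps6a and 319, 337 and 416 in WT (log2 fold change 1.69, SE 0.14, limma adjusted p 8.60e-10). With ASN1 it rose most. The other rises were TPS8, SEN1, DIN10, bZIP63, bZIP1, DIN9, TPS9 and TPS10, from 1.54 to 0.54. KIN10 and KIN11, the catalytic subunits of the energy sensor SnRK1, did not pass, at 0.019 and 0.28. In rps6a against WT 8 of the 15 were lower in rps6a (median -0.99), and in eS6A-HA against WT 0 passed limma (2 were higher at an unadjusted p under 0.05, median 0.036). With spike-in scaling 8 rose, 2 fell and the median was 0.58.

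Windows of ASN1 and TPS11 are shown because both carry TATCCA, known from sugar-regulated amylase genes of rice, and GATAAG, the I-box of light-regulated promoters, each searched on both strands. TATCCA occurred in 33.3% (5 of 15) and GATAAG in 33.3% (5 of 15) of the sugar starvation windows. Over all tested genes the shares were 14.4% and 12.5%, and over genes that rose 20.6% and 16.7%. Neither share was particular to this list. TATCCA occurred in 37% of the photosystem and antenna windows and 31.6% of the mitosis windows, and GATAAG in 33.3% of the DNA replication windows. Other lists had fewer, such as leaf polarity with 0% and 18.8%. The ASN1 window is chr3:17441462-17441561, minus strand, with TATCCA at 101 and GATAAG at 111 bases before the gene start. A further GATAAG at 246 bases lies outside it. The TPS11 window is chr2:8108718-8108847, plus strand, with TATCCA at 141 and GATAAG at 170 and 58 bases. Matches are in capitals.
ASN1: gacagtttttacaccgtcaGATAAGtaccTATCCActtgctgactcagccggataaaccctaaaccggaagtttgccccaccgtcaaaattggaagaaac
TPS11: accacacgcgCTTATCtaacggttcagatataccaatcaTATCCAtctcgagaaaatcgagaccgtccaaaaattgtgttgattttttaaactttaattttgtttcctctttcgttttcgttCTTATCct

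Senescence genes were split. Of 13, 9 were tested, 3 rose and 1 fell, against 12.7% and 10.9% of all genes, with a median of 0.067. NAP, a NAC factor that promotes leaf senescence, had 197, 208 and 207 counts in eS6A-HA, against 49.6, 35.7 and 67.7 in rps6a and 235, 287 and 287 in WT (log2 fold change 2.02, SE 0.20, limma adjusted p 3.23e-07). ORE1, another such factor, rose by 1.33, and PAO, an enzyme of chlorophyll breakdown, by 0.58. The ORE1 call was lost with spike-in scaling, with DESeq2 and without rps6a replicate 1 or eS6A-HA replicate 1. WRKY53 fell to 5.14, 6.07 and 5.62 in eS6A-HA, against 15.7, 21.6 and 15.9 in rps6a (log2 fold change -1.49). Other chlorophyll breakdown genes (NYC1, SGR1, PPH and RCCR) did not pass and lay between -0.028 and 0.22. The median was -0.38 with spike-in scaling (1 rise, 4 falls) and -0.033 with nuclear total scaling, and it lay between 0.086 and 0.13 when a library was left out.

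Clock genes, morning-phased ones among them, were mostly higher in eS6A-HA on the deposited scale. Of 21 clock genes 17 were tested, 10 rose and 1 fell, against 12.7% and 10.9% of all genes, with a median of 0.51. RVE1, a MYB-like factor linking the clock to auxin, had 571, 659 and 583 normalized counts in eS6A-HA, against 214, 164 and 207 in rps6a and 625, 592 and 734 in WT (log2 fold change 1.63, SE 0.10, limma adjusted p 1.66e-14). LHY, a core morning repressor, had 1301, 1319 and 1421 in eS6A-HA, against 746, 691 and 709 in rps6a and 1419, 1527 and 1590.5 in WT (log2 fold change 0.91, limma adjusted p 2.18e-11). The rps6a libraries lay below those of eS6A-HA and WT for both genes.

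The other clock rises were CCA1, RVE8, CDF1, RVE2, ZTL, LNK1, LNK2 and RVE4, from 0.91 to 0.46. GI, which peaks at the end of the day, went the other way, with 83.3, 74.0 and 86.5 in eS6A-HA, against 146, 135 and 134 in rps6a (log2 fold change -0.76, limma adjusted p 1.35e-05). The evening genes LUX, TOC1 and ELF3 did not pass, at -0.47, -0.45 and -0.28. The hour of harvest is not given in the sources used here. With spike-in scaling 5 rose and 6 fell, with a median of 0.059, and without eS6A-HA replicate 2 the falls numbered 2.

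SOC1, which promotes flowering, was the only 1 of 5 tested flowering time genes (of 10) to pass, with 311, 296 and 263 counts in eS6A-HA, against 144, 109 and 131 in rps6a and 331, 359.5 and 319 in WT (log2 fold change 1.18, limma adjusted p 2.49e-10). SOC1 made up 20% of the 5, where 12.7% of all genes rose. SVP, MAF1, MAF2 and MAF3 lay between -0.39 and 0.17. The median of the 5 was 0.16, or 0.071 without eS6A-HA replicate 1, and turned to -0.30 with spike-in scaling, where 1 rose and 2 fell.

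**Figure D5:**
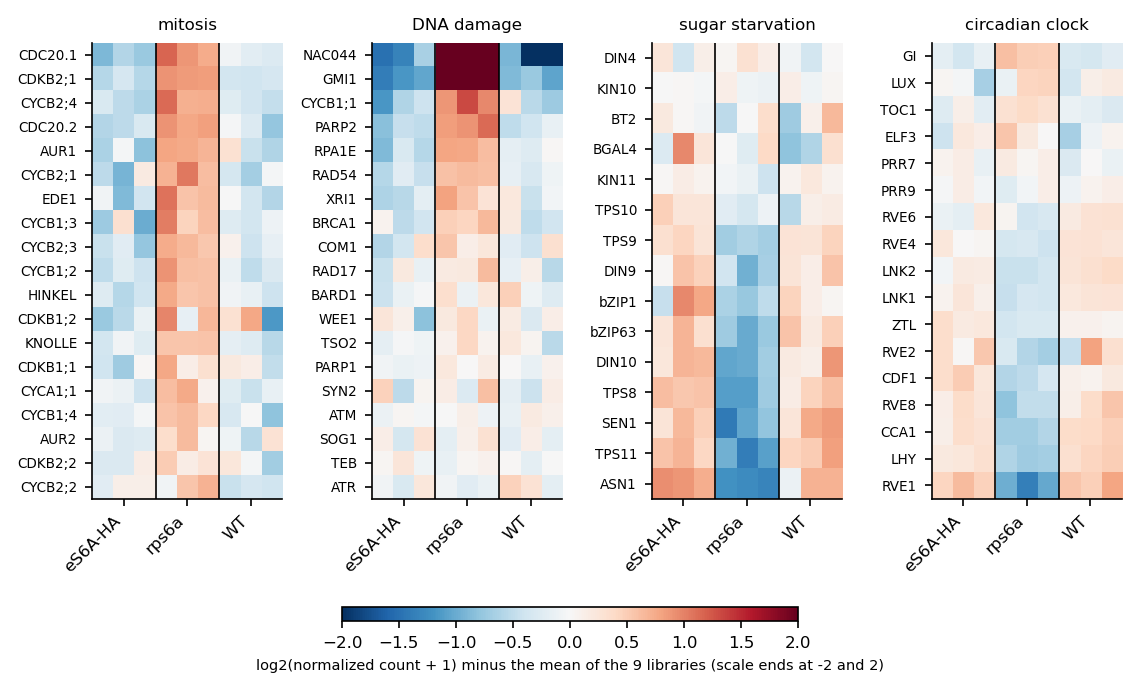
Heat map of log2(normalized count + 1) minus the mean of the 9 libraries shown, for tested genes (rows) of the mitosis, DNA damage, sugar starvation and circadian clock lists in the 3 eS6A-HA, 3 rps6a and 3 WT libraries (columns), on a colour scale from -2 to 2. The rps6a columns stand apart from both others, high for the 15 mitosis genes that fell in eS6A-HA and low for the 10 sugar starvation genes that rose, while with spike-in scaling the clock list has 5 rises and 6 falls.

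Nuclear genes of photosynthesis were slightly higher in eS6A-HA, a direction that turned with spike-in scaling. Of 47 photosystem, antenna and Rubisco genes 46 were tested, 25 rose and 0 fell with limma (0 with edgeR and with DESeq2, 2 at an unadjusted p under 0.05), against 12.7% and 10.9% of all genes, with a median of 0.24. LHCB2.1, a trimeric antenna protein of photosystem II, had 16575, 15105 and 15336 normalized counts in eS6A-HA, against 8247, 9599 and 10219 in rps6a (log2 fold change 0.75, limma adjusted p 1.19e-08). LHCA6, a minor antenna protein of photosystem I, had 518, 490.3 and 517 in eS6A-HA, against 305, 303 and 303 in rps6a (log2 fold change 0.74, limma adjusted p 5.53e-08). Neither gene overlapped between the groups. With spike-in scaling the list had 1 rise and 19 falls with a median of -0.22, and with upper-quartile or nuclear total scaling it had 22 or 19 rises and 2 falls. Antenna genes are near-identical in places, so the split between copies is uncertain.

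Plastid-encoded genes took a larger share of the gene reads in eS6A-HA. The share was 62.3%, 61.3% and 60.3% in the eS6A-HA libraries (61.3% ± 0.991, SD, n = 3), against 52.0%, 52.4% and 52.5% in rps6a (52.3% ± 0.283) and 59.2% ± 0.490 in WT. The groups did not overlap, and the exact two-sided permutation p of 0.1 is the smallest that 3 against 3 libraries can give. The gene ATCG00020 alone took 26.1% ± 0.740 in eS6A-HA, against 18.5% ± 1.02 in rps6a and 26.6% ± 0.749 in WT. Without it the plastid share was 47.6% ± 0.972 in eS6A-HA and 41.4% ± 1.06 in rps6a. As a ratio to the summed spike-in values, plastid genes stood at 11.6 ± 0.290 in eS6A-HA and 10.3 ± 0.665 in rps6a.

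Of 119 plastid-encoded genes 103 were tested, 66 rose and 0 fell with limma (0 with edgeR and with DESeq2, 1 at an unadjusted p under 0.05), against 12.7% and 10.9% of all genes, with a median of 0.37. ATCG00020 rose by 0.90 (SE 0.059, limma adjusted p 3.21e-13), and the largest rise was ATCG00270 with 82358, 80939 and 82220.4 normalized counts in eS6A-HA, against 40703, 47276 and 42306 in rps6a (log2 fold change 0.92, limma adjusted p 1.09e-07). The estimates spread down to -1.54 for ATCG01310, which did not pass. With spike-in scaling 4 rose and 23 fell, with a median of -0.084, and with nuclear total scaling 52 rose. Against WT, 7 were higher in eS6A-HA and 0 lower with limma (48 higher and 0 lower at an unadjusted p under 0.05).

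Mitochondria-encoded genes took 0.414% ± 0.0186 of the gene reads in eS6A-HA, against 0.575% ± 0.00920 in rps6a and 0.379% ± 0.00920 in WT (SD, n = 3 each, exact two-sided permutation p = 0.1 for eS6A-HA against rps6a). These shares did not overlap, but their total includes the plastid reads. The summed normalized counts of mitochondria-encoded genes overlapped, at 35671 to 40208 in eS6A-HA, against 39379 to 40463 in rps6a. As a ratio to the summed spike-in values they stood at 0.0786 ± 0.00324 in eS6A-HA and 0.114 ± 0.00828 in rps6a. Of 93 genes 53 were tested, 11 fell and 1 rose, against 10.9% and 12.7% of all genes, with a median of -0.21. The rise was ATMG01390, with 2842, 2211 and 2603 normalized counts in eS6A-HA, against 876, 1080.3 and 791 in rps6a and 796, 689 and 874 in WT (log2 fold change 1.48, SE 0.32, limma adjusted p 0.00667). Organelle identifiers carried no annotation in the reference used. Whether ATMG01390 codes for a ribosomal RNA, which depletion was meant to remove, was therefore not checked. ATMG00830 fell most, to 10.3, 21.8 and 19.1 in eS6A-HA, against 53.2, 44.8 and 46.0 in rps6a (log2 fold change -1.50). The count of falls was 18 with upper-quartile, 21 with nuclear total and 40 with spike-in scaling, and 7 without eS6A-HA replicate 2.

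Anthocyanin genes were lower in eS6A-HA than in rps6a, while 3 regulators of the pathway were higher. Of 23 genes 18 were tested, 11 fell and 3 rose, against 10.9% and 12.7% of all genes, with a median of -0.75. TT19, a glutathione transferase that carries anthocyanins to the vacuole, had 65.8, 41.3 and 57.3 normalized counts in eS6A-HA, against 155, 164 and 135 in rps6a and a mean of 24.7 in WT (log2 fold change -1.47, limma adjusted p 4.16e-08). The eS6A-HA libraries lay between those of rps6a and WT, and TT19 was also higher than in WT by 1.11 (limma adjusted p 1.45e-04). TT8, a bHLH activator, also fell (log2 fold change -1.23, limma adjusted p 8.24e-04). The other falls were UGT79B1, 5MAT, UGT75C1, TT7, PAP1, LDOX, LBD38, CHI and CHS, from -1.14 to -0.35.

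MYBL2, a repressor of the pathway, had 415, 387 and 373 counts in eS6A-HA, against 208, 175 and 189 in rps6a (log2 fold change 1.04, limma adjusted p 2.55e-10), and TTG1, a WD40 scaffold of the activator complex, rose by 0.46. LBD37, which represses the pathway when nitrogen is ample, rose by 0.26. With spike-in scaling the list had 1 rise, and without eS6A-HA replicate 2 the list had 7 falls. In rps6a against WT 12 of the 18 were higher in rps6a, and in eS6A-HA against WT 6 were higher in eS6A-HA (median 0.35).

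Phosphate starvation genes rose in part. Of 22, 18 were tested, 8 rose and 2 fell, against 12.7% and 10.9% of all genes, with a median of 0.30. GDPD1, a phosphodiesterase that frees phosphate from lipid head groups, had 235, 150.5 and 262 normalized counts in eS6A-HA, against 68.9, 92.2 and 89.4 in rps6a (log2 fold change 1.33, limma adjusted p 0.0092). MGD2, a galactolipid synthase, rose by 1.05, and the other rises were PAP17, SQD2, PHO2, SQD1, SPX2 and PHR1, from 1.00 to 0.29. The falls were PHT1;4, a phosphate transporter, to 39.1, 25.5 and 58.4 in eS6A-HA, against 85.9, 80.5 and 79.4 in rps6a (log2 fold change -1.06), and the noncoding RNA IPS1 to 22.6, 27.9 and 37.1 in eS6A-HA, against 52.0, 55.6 and 56.0 in rps6a (log2 fold change -0.91). Leaving out rps6a replicate 1, 2 or 3 or eS6A-HA replicate 1 gave 1 fall, and leaving out eS6A-HA replicate 2 gave 0. With eS6A-HA replicate 2 left out the median was 0.56, whereas it was 0.20 when eS6A-HA replicate 3 was left out and 0.72 with a filter at a mean of 50. With spike-in scaling 3 rose and 3 fell, and the median was -0.15.

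Of 21 heat shock genes 10 were tested, and 2 (20%) rose, against 12.7% of all genes. HSP70 had 299, 359 and 320.2 counts in eS6A-HA, against 173, 186 and 170.5 in rps6a and 391, 453 and 536 in WT (log2 fold change 0.88, limma adjusted p 1.26e-06), and the repressor gene HSFB2A rose by 1.01. The other 8 lay between -0.62 and 0.94 and did not pass, and the median of 0.13 became -0.32 with spike-in scaling, 0.037 without rps6a replicate 1 and 0.20 to 0.22 without rps6a replicate 2, rps6a replicate 3 or eS6A-HA replicate 3. Of 8 genes of mitochondrial stress 5 were tested and 1 (20%) rose, against 12.7% of all genes. It was NAC017, a membrane-bound NAC factor of retrograde signalling. Its rise of 0.34 turned to -0.11 with spike-in scaling and was lost with nuclear total scaling. The median of the 5 was 0.22, or 0.12 without rps6a replicate 1, and turned to -0.23 with spike-in scaling, where 0 rose and 2 fell. AOX1A, the alternative oxidase that this factor is known to induce, did not pass, at 0.22.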

How the data were processed

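The authors deposited a signal per gene and library, namely counts divided by 1 size factor per library, per the file headers. STAR 2.7.6a, featureCounts 2.0.0, DESeq2 1.26.0 and the build TAIR10 are named in the submitters' processing notes. Strand use in counting was not stated. Sequencing was paired-end with 75-base reads, per the labels' protocols. Each positive value came out as a whole read (100% within 0.01), so reads were recovered for edgeR and DESeq2, run as alternatives. Recovered gene reads ranged from 5726410 to 10009723 per library. Pairs of libraries within a group differed by more than counting noise (chi-square per degree of freedom 1.66 to 4.23), so each counted as 1 replicate.

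The main test was limma 3.58.1 (R 4.3.3, trend, robust) on log2(normalized count + 1) for 16335 genes with a mean of at least 10, all 15 libraries in 1 fit, with two-sided p-values adjusted by Benjamini-Hochberg and a threshold of 0.05. Fold changes on that scale understate the change of low genes. Alternatives numbered 18, with edgeR 4.0.16 and DESeq2 1.42.0 among them. On simulated counts in which 200 of the 16335 genes were changed, limma recovered 44% of 1.5-fold and 88% of 2-fold changes. The real comparison called 3852 genes, so these rates need not apply to it. Gene groups and lists were chosen with earlier results of these data known. Named genes were RPS6A, RPS6B, the 8 largest rises and 8 largest falls without overlap among genes that averaged 50 or more in 1 of the compared groups, and the 2 largest calls per direction and list, and lists of 12 or fewer whole. Other genes named were chosen after their values were seen. Of 21777 identifiers 21565 matched the TAIR10.1 reference, and 16178 tested genes had a window of 250 bases. Spike-in rows (77) were kept out of the gene tests.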

Additional observations from a re-analysis of the deposited data

How the results depend on the processing

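The count of 3852 genes became 8358 with spike-in scaling (253 higher, 8105 lower), of which 2037 were among the 3852, and 628 with a fold change of at least 2 (186 higher, 442 lower). With nuclear total scaling 1329 were higher and 2702 lower, and with a mean of at least 50 the lower count was 1176. The edgeR test called 3714 and DESeq2 2892. Leaving out 1 library gave 2918 to 3409 genes, 1598 to 1876 of them higher and 1320 to 1544 lower. RPS6A kept its call in all 18 alternatives, from 4.25 to 4.86 (4.61 to 4.86 leaving out 1 library), and RPS6B from -4.27 to -3.69 (-3.89 to -3.69). The plastid share differed by 8.49 to 9.48 percentage points and the mitochondrial share by -0.167 to -0.150 leaving out 1 library. Of 1133 values of named genes under alternatives 1068 kept call and direction, 59 lost the call and 6 reversed, all with spike-in scaling: MDN1 -0.13, RAPTOR2 -0.0081, RAPTOR1 -0.036, CYP79F1 -0.13, AOS -0.15 and NAC017 -0.11. Spike-in scaling lowered the median of all genes to -0.45. That shift was larger than the deposited-scale rises of these genes, such as 0.44 for RAPTOR2 and 0.33 for MDN1. What set the spike-in scale apart was not tested. The replicate block gave 3900 genes. Deviations of libraries with the same number correlated at -0.041 to -0.0085, so the samples share only a number. Changes of 1.5-fold were recovered less often than those of 2-fold on simulated data, and low genes are limited by depth.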

Other observations

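The defence genes of glucosinolates and jasmonate were also compared. Of 26 aliphatic glucosinolate genes 25 were tested, 7 were lower and 1 higher in eS6A-HA than in rps6a, against 10.9% and 12.7% of all genes. The median log2 fold change was -0.21. MAM3, a chain elongation enzyme, had 43.2, 38.8 and 29.2 normalized counts in eS6A-HA, against 148, 173 and 223 in rps6a and 66.4, 81.7 and 91.5 in WT (log2 fold change -2.25, limma adjusted p 2.16e-07). It lay below WT in eS6A-HA (log2 fold change -1.09, limma adjusted p 0.0194) and above WT in rps6a (1.16, limma adjusted p 6.52e-04). IPMI2 fell (log2 fold change -0.60), a call lost without rps6a replicate 1, eS6A-HA replicate 2 or eS6A-HA replicate 3 and in a fit of the 6 libraries alone, and CYP79F1, which starts the core structure, rose by 0.33, which turned to -0.13 with spike-in scaling and was lost with nuclear total scaling and without rps6a replicate 1 or eS6A-HA replicate 1. The list median was -0.13 without eS6A-HA replicate 2. The count of falls was 13 with upper-quartile, 14 with nuclear total and 24 with spike-in scaling. It was 12 without eS6A-HA replicate 1, 4 without replicate 2 and 3 without replicate 3.

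All 10 genes for myrosinases, their binding proteins and product specifiers were tested, 4 rose and 3 fell in eS6A-HA against rps6a (median 0.22, or -0.23 with spike-in scaling). Among all genes 12.7% rose and 10.9% fell. JAL23, a jacalin lectin, had 80.2, 32.8 and 44.9 normalized counts in eS6A-HA, against 16.9, 18.3 and 21.7 in rps6a and 3.56, 5.45 and 4.77 in WT. It was higher in eS6A-HA than in rps6a by 1.33 (limma adjusted p 0.00103) and than in WT by 3.18 (limma adjusted p 7.41e-09), the 3 groups being ordered without overlap. ESP, MBP2 and the myrosinase gene TGG1 rose by 0.67, 0.63 and 0.22, while MVP1, ESM1 and NSP1 fell, with log2 fold changes of -0.66, -0.63 and -0.54. Rises numbered 2 with nuclear total scaling, with a filter at a mean of 50, without rps6a replicate 3 and without eS6A-HA replicate 3, and 1 with spike-in scaling. Of these 10 genes 4 were higher in eS6A-HA than in WT and 6 higher in rps6a than in WT.

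Of 19 jasmonate genes 15 were tested, and 2 (13.3%) rose and 2 (13.3%) fell in eS6A-HA against rps6a, near the 12.7% and 10.9% of all genes. In the same list 6 were higher in eS6A-HA than in WT and 8 higher in rps6a than in WT, with medians of 0.59 and 0.63. The shares of all genes higher than in WT were 0.551% and 10.4%. VSP2, a storage protein gene induced by jasmonate, had 1141, 626 and 613 counts in eS6A-HA, against 229, 321 and 322 in rps6a and 203, 189.8 and 169.7 in WT (limma adjusted p 0.00231 against rps6a and 0.00381 against WT). LOX2, the lipoxygenase of jasmonate synthesis, had 3119, 2467 and 2478 in eS6A-HA, against 3233, 3259 and 3109.6 in rps6a and 1476, 1259 and 1239.6 in WT, lower than in rps6a (log2 fold change -0.26, limma adjusted p 0.0233) and higher than in WT (log2 fold change 1.02, limma adjusted p 4.72e-10). The LOX2 libraries of eS6A-HA and rps6a overlapped, and the fall was lost without rps6a replicate 1, rps6a replicate 2, eS6A-HA replicate 2 or eS6A-HA replicate 3 (limma adjusted p up to 0.150). AOS rose by 0.31, a call that held in 9 of 18 alternatives. It turned to -0.15 with spike-in scaling and was lost with upper-quartile and nuclear total scaling, with the replicate block, with DESeq2 and without rps6a replicate 1, rps6a replicate 2, eS6A-HA replicate 1 or eS6A-HA replicate 2. AOC2 fell (log2 fold change -0.47). Leaving out any single library gave 1 or 2 rises and 1 to 3 falls, and the list median of -0.066 then lay between -0.17 and 0.014. Spike-in scaling gave 8 falls. The comparisons with WT share libraries with the main one, and the difference between them was not tested.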
